A study of Mus musculus with 3 samples.

Results

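The immediate early genes Fos, Fosb, Jun, Junb, Jund, Egr1, Egr2, Atf3, Ier2 and Nr4a1 were examined across myeloid cells of the mouse colon. They were taken by symbol, and all 10 were found among the 24346 gene symbols measured. RNA sequencing covered 3 populations isolated from the colon of healthy mice of the BALB/c strain, namely Gr-1+ CD11b+ cells, labelled as neutrophil and monocyte, CD64- dendritic cells (DC) and CD64+ macrophages. The labels name no mutation and no agent in any group. Age, number and pooling of the mice and the way the tissue was dissociated are not given in the sources used here. Each population is 1 library, so nothing below has a replicate check and no p-value is given.

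Immediate early genes are switched on within minutes of a stimulus by factors already present in the cell, without new protein synthesis. Growth factors, microbial products and stress reach them through MAP kinases, which activate serum response factor with its ternary complex partners and the CREB and ATF factors. In myeloid cells they accompany activation, and they are also known to be induced by the handling of tissue during cell isolation. Fos and Fosb encode FOS proteins, which bind DNA as a pair with a JUN protein in the complex called AP-1, and Jun, Junb and Jund encode the JUN partners. Atf3 encodes a factor of the ATF family with the same basic leucine zipper (bZIP) fold. Egr1 and Egr2 encode zinc finger factors, Nr4a1 encodes the orphan nuclear receptor Nur77, and Ier2 encodes a small nuclear protein.

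Promoter sequence of 4 of these genes is shown. Fos and Junb were the most abundant and Egr2 ranged most between populations, so the letters can be set beside those values. Nr4a1 is shown because its window held the most matches to TGACG. RefSeq windows on GRCm38.p6 were used for 8 of the 10 genes, all but Egr1 and Ier2. The 250 bases before the annotated start are printed 5′ to 3′ along the gene. Capitals mark TGACG on either strand, the core of the cyclic AMP response element (read as CGTCA from the other strand), and the CArG box, which serum response factor binds.
Fos (chr12:85473640-85473889, plus strand): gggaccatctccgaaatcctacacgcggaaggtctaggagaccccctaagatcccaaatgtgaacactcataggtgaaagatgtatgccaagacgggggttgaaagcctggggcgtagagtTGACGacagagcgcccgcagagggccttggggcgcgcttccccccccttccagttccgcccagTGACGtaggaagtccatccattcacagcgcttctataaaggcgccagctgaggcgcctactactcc
Junb (chr8:84978749-84978998, minus strand): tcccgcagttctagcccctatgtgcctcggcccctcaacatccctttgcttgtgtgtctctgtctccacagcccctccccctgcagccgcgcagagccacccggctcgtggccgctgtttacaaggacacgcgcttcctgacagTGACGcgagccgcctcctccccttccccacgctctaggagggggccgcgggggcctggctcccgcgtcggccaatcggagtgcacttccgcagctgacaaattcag
Egr2 (chr10:67537619-67537868, plus strand): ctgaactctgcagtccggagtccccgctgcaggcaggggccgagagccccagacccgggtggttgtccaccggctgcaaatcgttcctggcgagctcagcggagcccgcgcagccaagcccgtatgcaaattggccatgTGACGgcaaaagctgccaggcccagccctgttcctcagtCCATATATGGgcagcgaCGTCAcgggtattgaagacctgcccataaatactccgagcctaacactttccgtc
Nr4a1 (chr15:101266596-101266845, plus strand): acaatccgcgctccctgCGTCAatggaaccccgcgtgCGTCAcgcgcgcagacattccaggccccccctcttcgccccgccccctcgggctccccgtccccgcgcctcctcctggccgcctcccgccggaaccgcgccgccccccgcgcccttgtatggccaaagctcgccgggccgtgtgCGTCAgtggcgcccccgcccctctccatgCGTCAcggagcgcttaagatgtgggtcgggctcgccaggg

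Of the 8 windows, 6 held TGACG, a motif added after the sequences had been seen, against 17.8% of 32851 windows of the same length. TGACG was chosen from these same windows, so its share here is no test of enrichment. Nr4a1 held it at 4 positions, Fos and Egr2 at 2 each, and Fosb, Junb and Atf3 at 1 each. A CArG box lay in the Egr2 window alone, at positions -72 to -63 from the start, where 1.47% of all windows held one. Egr2 had 5 RefSeq windows, of which the printed window was used. Bases farther upstream were not searched, so a gene without a match here may hold a CArG box elsewhere. The palindrome TGACGTCA (1.55% of windows), the AP-1 motif TGANTCA (6.75%) and the EGR motif GCGTGGGCG (0.536%), all searched on both strands, matched none of the 8. TGACG is contained in TGACGTCA. The start behind the Jund window lies 1210 bases from the one GENCODE gives for its main transcript. These matches are letters in a window and say nothing of binding.

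Values are FPKM as the authors deposited them, that is fragments scaled to transcript length and to the mapped total of the library, so levels can be compared between genes. From the steps between low values, the DC and macrophage libraries were 3.59 and 2.71 times as deep as the Gr-1+ CD11b+ library. Olfactory and vomeronasal receptor genes, which these cells should not use, gave a background level, taken as their 95th percentile, of 9.69 FPKM in the Gr-1+ CD11b+ library, 0.611 in DC and 3.24 in macrophages. All 10 immediate early genes exceeded it in every library. Fcgr1, which encodes the CD64 used to separate DC from macrophages, was at 12.3 FPKM in the Gr-1+ CD11b+ library, 9.23 in DC and 113 in macrophages. The libraries also differed in markers of other cells, of which none was at 0 in any library, although not all exceeded background. In the Gr-1+ CD11b+ library, DC and macrophages, 5, 9 and 9 of 9 B and plasma cell markers exceeded it. For 10 dendritic cell markers the counts were 2, 10 and 8, and for 10 macrophage markers 8, 10 and 10. Of 5 T cell markers 0, 5 and 3 did so, of 5 mast cell markers 0, 3 and 0, and of 5 stromal markers 4, 5 and 4. Because the background level differed between libraries, these counts do not rank marker levels. Cd3d, for example, exceeded background in DC at 6.71 FPKM but not in the Gr-1+ CD11b+ library at 8.12. The summed level of 9 B and plasma cell markers was 671, 24133 and 1420 FPKM in the Gr-1+ CD11b+ library, DC and macrophages, and all 9 were higher in DC than in both others. Without Jchain, the leading gene, those sums were 320, 5286 and 438 FPKM. That of 10 dendritic cell markers was 65.3, 1368 and 301 FPKM, with 8 of the 10 highest in DC. Ccr7 made up 1004 FPKM of the DC sum, and without it the sums were 37.8, 364 and 193 FPKM. Batf3 was highest in macrophages. Xcr1 had its highest value in the Gr-1+ CD11b+ library, but that value, 4.18 FPKM, was below background there, so no order is given for it. The summed level of 10 neutrophil markers was 181089, 1814 and 4822 FPKM, and that of 10 macrophage markers 13484, 3737 and 34015 FPKM. Cd14 made up 10998 FPKM of the macrophage marker sum in the Gr-1+ CD11b+ library, and without it the sums were 2486, 3276 and 28034 FPKM. These sums are as deposited, and no order of DC and Gr-1+ CD11b+ cells is given for them. Epithelial markers, 7 in number, summed to 830.1, 367 and 229 FPKM, 5 T cell markers to 29.1, 229.9 and 35.5 FPKM, 5 stromal markers to 301, 303 and 171 FPKM, and 5 mast cell markers to 11.7, 18.8 and 8.74 FPKM, or 6.96, 2.66 and 5.72 without Kit. In such bulk samples fewer cells of a type and less RNA per cell cannot be told apart, and the part of other cells in the values below was not tested.

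The immediate early genes were abundant in all 3 populations. Of the 10, 8 ranked at or above the 95th percentile of all genes in every library, and the exceptions were Fosb and Egr2. The 10 genes together held 0.614% of the FPKM sum in the Gr-1+ CD11b+ library, 0.478% in DC and 0.554% in macrophages. Their median level was 264, 242 and 256 FPKM in that order, against medians of 3.76, 4.01 and 3.29 FPKM over the 17329 genes that reached 1 FPKM in any library. Junb led in the Gr-1+ CD11b+ library and DC and Fos led in macrophages.

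**Figure D1:**
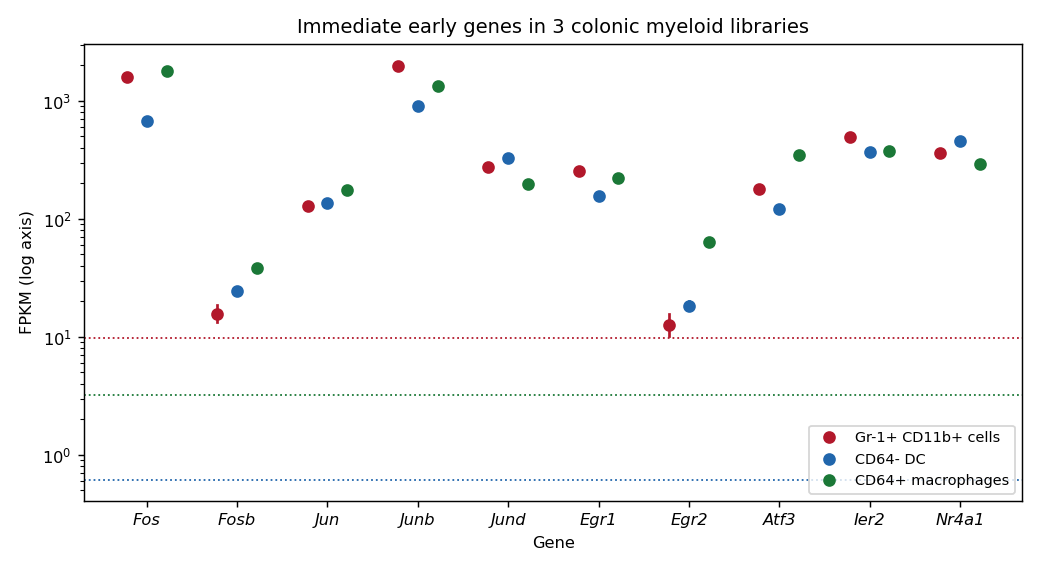
FPKM of each gene on a log axis in Gr-1+ CD11b+ cells (red), DC (blue) and macrophages (green), with bars for the 95% counting interval of the estimated fragments, which is mostly smaller than the point. Dotted lines are the background level of each library, and Egr2 in the Gr-1+ CD11b+ library, at 12.6 FPKM, is the value closest to its line at 9.69.

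Fos (chr12:85473890-85477273, plus strand, as all coordinates from GENCODE M21 on GRCm38) was at 1589 FPKM in the Gr-1+ CD11b+ library, 676 in DC and 1802 in macrophages. As deposited, it was 2.35-fold higher in Gr-1+ CD11b+ cells than DC and in DC 0.375 times the macrophage level, while Gr-1+ CD11b+ cells and macrophages were close. Fosb (chr7:19302696-19310051, minus strand), whose product can replace FOS in AP-1, was far less abundant, at 15.7 FPKM in the Gr-1+ CD11b+ library, 24.4 in DC and 38.3 in macrophages. As deposited, the Gr-1+ CD11b+ library held its lowest value, whereas DC did under median-ratio and 75th percentile scaling, as for Fos. Within each library Fos exceeded Fosb 101-fold in the Gr-1+ CD11b+ library, 27.7-fold in DC and 47.0-fold in macrophages.

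The 3 JUN genes, each encoded by a single exon like Ier2, ran in different orders over the libraries. Junb (chr8:84974484-84978718, minus strand) was at 1984 FPKM in the Gr-1+ CD11b+ library, 905 in DC and 1334 in macrophages. Jun (chr4:95049034-95052222, minus strand) was at 129, 136 and 175 FPKM in that order, so the populations lay within a 1.36-fold range. Jund (chr8:70698949-70700616, plus strand), known for being present in resting cells as well, was at 275 FPKM in the Gr-1+ CD11b+ library, 328 in DC and 199 in macrophages. DC had the least Junb under every scaling and, as deposited, the most Jund, although the Gr-1+ CD11b+ library exceeded DC for Jund under median-ratio and 75th percentile scaling. Exons of Junb overlap those of Prdx2 on the other strand. Prdx2 was at 99.1, 169 and 259 FPKM in the Gr-1+ CD11b+ library, DC and macrophages, and without stated strand information reads of overlapping genes cannot be told apart. Jun and Jund overlap the antisense genes Junos and Gm11175, for which no value was used here.

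Egr1 (chr18:34859823-34864984, plus strand) was at 253 FPKM in the Gr-1+ CD11b+ library, 155 in DC and 222 in macrophages. Egr2 (chr10:67535475-67542188, plus strand), which is needed for the mature state of alveolar macrophages in mice, was at 12.6, 18.4 and 64.3 FPKM in that order. Macrophages stood apart for Egr2, with 5.10 times the level of Gr-1+ CD11b+ cells and 3.49 times that of DC. Egr2 had the widest range of the 10 genes. Its value in Gr-1+ CD11b+ cells corresponded to about 87 fragments, the fewest behind any of the 30 values, with a 95% Poisson interval of 10.1 to 15.5 FPKM, which nearly reaches the background level of that library.

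Atf3 (chr1:191170296-191218039, minus strand), which restrains inflammatory gene expression in stimulated mouse macrophages, was at 181 FPKM in the Gr-1+ CD11b+ library, 122 in DC and 346 in macrophages. Like Fosb and Egr2 it was highest in macrophages under every scaling, and Fos and Jun were so as deposited. Nr4a1 (chr15:101254269-101274795, plus strand), required in mice for Ly6C-low monocytes, was at 364 FPKM in the Gr-1+ CD11b+ library, 459 in DC and 290 in macrophages. Like Jund it was lowest in macrophages under every scaling and highest in DC as deposited, with the Gr-1+ CD11b+ library above DC under median-ratio and 75th percentile scaling. Ier2 (chr8:84661331-84662852, minus strand) was at 498 FPKM in the Gr-1+ CD11b+ library, 367 in DC and 375 in macrophages, and its DC and macrophage values differed by less than the counting error.

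As deposited, 5 of the 10 had their highest value in macrophages, 3 in the Gr-1+ CD11b+ library and 2 in DC. The lowest value was in DC for 5, in Gr-1+ CD11b+ cells for 3 and in macrophages for 2. Shares of all genes highest or lowest in each library were not computed. In pairs, 5 of the 10 were lower in Gr-1+ CD11b+ cells than DC, 5 lower than in macrophages, and 8 lower in DC than macrophages. Of genes at 10 FPKM or more in either library of the pair, 4883 of 6740, 4421 of 6083 and 2755 of 6614 were so. The highest library exceeded the lowest by less than 2-fold for Jun, Jund, Egr1, Ier2 and Nr4a1. It did so by between 2-fold and 3-fold for Fos, Fosb, Junb and Atf3, and by more for Egr2. The genes under 2-fold were Jun, Junb, Egr1 and Ier2 with equal sums, Jun and Fosb with median ratios, and Jun, Fosb and Nr4a1 with 75th percentiles, so Jun was under 2-fold throughout. Counting intervals, which cover counting error only, overlapped in 2 of 30 pairs of values. Those were Jun between Gr-1+ CD11b+ cells and DC and Ier2 between DC and macrophages. Such intervals narrow as fragments rise, and the same share over all genes was not computed. The count is thus not read as a trait of the 10. The spread between mice or isolations is unknown for all 30.

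The populations were next compared in pairs by a rule of size, a difference of 2 or more in log2(FPKM + 1) provided the higher of the libraries compared held at least 10 FPKM. The added 1 slightly understates differences of the low genes Fosb and Egr2. Between Gr-1+ CD11b+ cells and DC, 0 of 10 genes were higher and 0 lower by the rule, where 3.65% of all 17329 genes compared were called higher and 6.28% lower. Those were 633 higher and 1088 lower genes, which became 492 and 1814 with equal sums, 1106 and 419 with median ratios and 1141 and 370 with 75th percentiles. Fos and Junb had the largest differences, at 1.23 and 1.13. Both were positive under every scaling, as were Egr1, Atf3 and Ier2 at 0.70, 0.57 and 0.44. Fosb, Egr2, Nr4a1, Jund and Jun were at -0.61, -0.51, -0.33, -0.25 and -0.08. With each library scaled to the same 75th percentile, Fos reached the limit of 2. All 5 negative values turned positive under median-ratio and 75th percentile scaling, so no direction is given for those genes.

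Between Gr-1+ CD11b+ cells and macrophages, 1 of 10 genes was called, where 1.41% of all genes were called higher and 3.41% lower in Gr-1+ CD11b+ cells. Those were 244 higher and 591 lower genes, against 774 and 195 with median ratios and 647 and 244 with 75th percentiles. That 1 gene was Egr2, lower in Gr-1+ CD11b+ cells with a difference of -2.26. The call was lost with median-ratio scaling, at -1.55, with 75th percentile scaling, at -1.70, and with a pseudocount of 10, at -1.72, while the sign stayed. Fosb differed by -1.23 and Atf3 by -0.93, both negative under every scaling. Junb at 0.57, Jund at 0.46, Ier2 at 0.41, Nr4a1 at 0.32 and Egr1 at 0.19 were positive under every scaling, short of the rule. Fos at -0.18 and Jun at -0.44 turned positive under median-ratio and 75th percentile scaling.

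Between DC and macrophages, 0 of 10 genes were called, where 1.53% of all genes were called higher and 2.31% lower in DC. Those were 266 higher and 401 lower genes, against 416 and 264 with equal sums. Egr2 at -1.75, Atf3 at -1.50 and Fos at -1.41 had the largest differences, all negative under every scaling. Fosb, Junb and Egr1 at -0.63, -0.56 and -0.51 were also negative throughout, and Jund at 0.72 and Nr4a1 at 0.66 positive throughout. Jun at -0.36 and Ier2 at -0.03 changed sign with equal sums, Ier2 also with median ratios. With the 3 comparisons resting on 3 libraries, each library enters 2 of them.

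**Figure D2:**
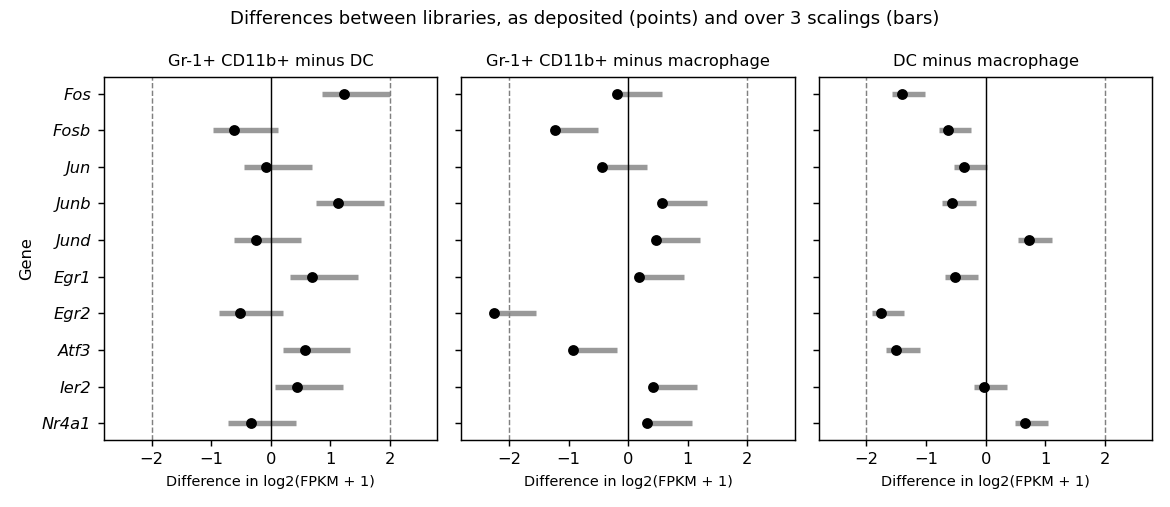
Difference in log2(FPKM + 1) for each gene in the 3 comparisons, as deposited (points) and over 3 scalings (grey bars), with dashed lines at the rule of 2. Egr2 between Gr-1+ CD11b+ cells and macrophages, at -2.26, is the point past a line.

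All 10 genes lay above the floor of 10 FPKM in every library, which most genes compared did not reach, so a second background was taken over genes at that floor in at least 1 library of the pair. There 9.39% of 6740 genes were called higher and 16.1% lower in Gr-1+ CD11b+ cells than DC. The shares were 4.01% and 9.72% of 6083 genes against macrophages, and 4.02% and 6.06% of 6614 genes for DC against macrophages. A difference of 1 or more in size was reached by 2, 2 and 3 of the 10 genes in these comparisons, which is 20%, 20% and 30%, and by 63.4%, 56.4% and 29.6% of genes at the floor. With equal sums 0, 2 and 5 of the 10 reached it, against 71.3%, 56.1% and 38.7% of genes at the floor. With median ratios it was 5, 5 and 3 of the 10, against 50.8%, 42.8% and 30.1%, and with 75th percentiles 5, 4 and 3, against 50.4%, 44.4% and 28.9%, so the shares of the 10 lay well below the background in the first and second comparisons only as deposited and with equal sums. The median difference of the 10 genes was 0.18 for Gr-1+ CD11b+ cells minus DC, 0.01 for Gr-1+ CD11b+ cells minus macrophages and -0.54 for DC minus macrophages. The 3 medians were -0.19, 0.02 and -0.15 with equal sums, 0.87, 0.76 and -0.48 with median ratios and 0.95, 0.60 and -0.70 with 75th percentiles. Over genes at the floor the median was, as deposited, -0.94, -0.81 and 0.17, and over all genes compared 0.01, 0.10 and -0.05.

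Ratios within a library do not depend on its scaling, so the make-up of each family was also compared. In the FOS family Fos held 94.3% of the summed FPKM in the Gr-1+ CD11b+ library, 94.8% in DC and 96.8% in macrophages. The remainder differed in kind. Fosl1, which encodes FRA-1, held 3.12% in the Gr-1+ CD11b+ library, 0.528% in DC and 0.331% in macrophages, whereas Fosb held 0.932%, 3.42% and 2.06% in that order. In the JUN family Junb held 83.1% in the Gr-1+ CD11b+ library, 66.1% in DC and 78.1% in macrophages, and Jund 11.5%, 24.0% and 11.7%. DC thus had the largest share of Jund of the 3 libraries. The summed FOS family was 0.706 times the summed JUN family in the Gr-1+ CD11b+ library, 0.521 times in DC and 1.09 times in macrophages.

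Egr1 held 94.7% of the EGR family sum in the Gr-1+ CD11b+ library, 85.3% in DC and 77.2% in macrophages, and Egr2 4.72%, 10.1% and 22.4%. Egr3 held 4.47% in DC and under 1% in both other libraries, with 1.54 FPKM in the Gr-1+ CD11b+ library, 8.14 in DC and 0.894 in macrophages. The values of Egr3 in the Gr-1+ CD11b+ library and macrophages were below background. Egr4 was below background everywhere. In the NR4A family Nr4a1 held 88.4% in the Gr-1+ CD11b+ library, 84.4% in DC and 64.7% in macrophages. Nr4a2, a close relative of Nr4a1, held 4.08%, 9.22% and 23.7% in that order. Macrophages thus had the largest shares of both Egr2 and Nr4a2 within their families.

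**Figure D3:**
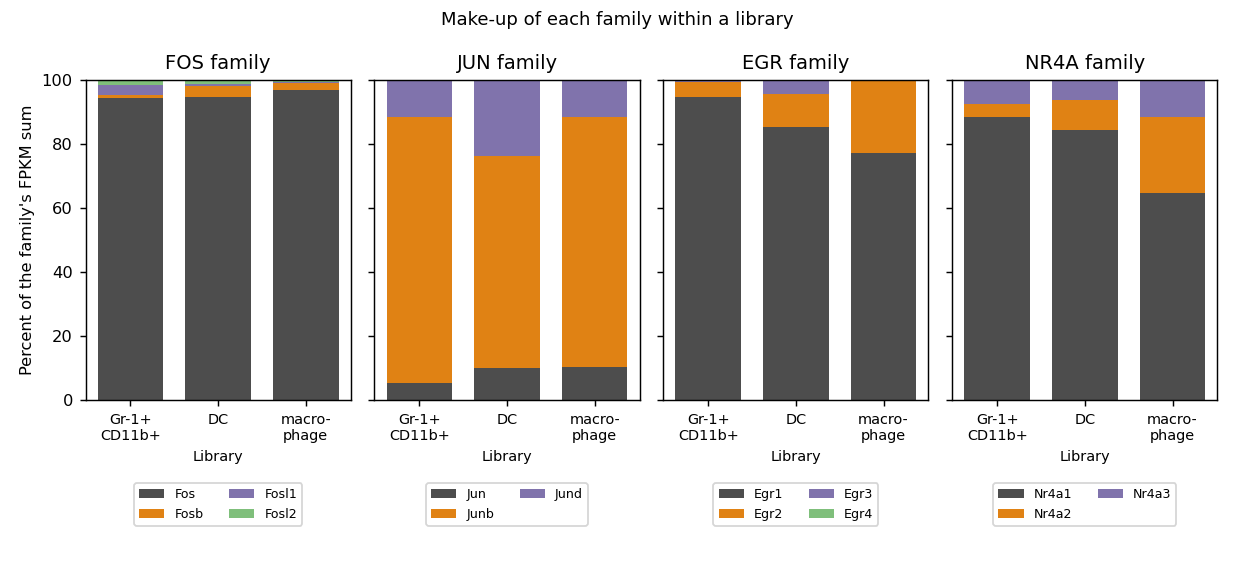
Percent of the FPKM sum of each family held by each of its genes, 1 bar per library with Gr-1+ CD11b+ cells at the left, DC in the middle and macrophages at the right. Jund takes 24.0% of the JUN family in DC, and Egr2 22.4% of the EGR family in macrophages.

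The lists of further genes were read by the same rule. Their counts stand beside the shares of genes at the floor, 9.39% higher and 16.1% lower in Gr-1+ CD11b+ cells than DC. Those shares were 4.01% and 9.72% against macrophages, and 4.02% and 6.06% for DC against macrophages. Some listed genes lay under that floor. Of 9 relatives 8 reached 1 FPKM, and of these 2, Fosl1 and Ier3, were higher and 0 lower in Gr-1+ CD11b+ cells than DC by the rule, with 3 and 0 under median-ratio and 75th percentile scaling. Ier3, a stress-induced regulator of survival, was at 1157 FPKM in the Gr-1+ CD11b+ library, 105 in DC and 917 in macrophages. Fosl1 was at 52.6, 3.77 and 6.15 FPKM, with differences of 3.49 from DC and 2.91 from macrophages. Both genes held these calls under every scaling. Against macrophages Fosl1 alone was higher, and 1 relative was lower in Gr-1+ CD11b+ cells. That was Nr4a2, at 16.8 FPKM in the Gr-1+ CD11b+ library, 50.1 in DC and 106 in macrophages, a call lost with median-ratio scaling. In DC against macrophages 0 were higher and 1, Ier3, was lower. Ier5 was at 78.4, 44.5 and 60.7 FPKM without a call.

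Among 24 other early response genes at 1 FPKM or more, 3 were higher and 1 lower in Gr-1+ CD11b+ cells than DC, with 6 and 1 under median-ratio and 7 and 1 under 75th percentile scaling. Dusp1, a phosphatase that turns off MAP kinases, was at 3380 FPKM in the Gr-1+ CD11b+ library, 544 in DC and 2343 in macrophages. Nfkbiz, a nuclear regulator of NF-kB target genes, was at 765, 85.7 and 321 FPKM, and Plk3, a stress-responsive kinase, at 304, 33.9 and 102 FPKM. Myc, the gene lower in the Gr-1+ CD11b+ library, was at 10.5 FPKM there, 75.3 in DC and 23.3 in macrophages. The first of these values is close to the background of 9.69 FPKM in that library. Btg2 and Zfp36, an inhibitor of proliferation and an mRNA decay factor, were at 904 and 857 FPKM in the Gr-1+ CD11b+ library, 368 and 447 in DC, and 628 and 965 in macrophages, with no call.

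Against macrophages, 0 of the 24 were higher in Gr-1+ CD11b+ cells and 1 was lower, Sgk1, a stress-inducible kinase at 58.1, 41.6 and 275 FPKM in the Gr-1+ CD11b+ library, DC and macrophages. The counts became 2 and 0 under median-ratio and 1 and 0 under 75th percentile scaling. In DC against macrophages 0 were higher and 2 lower, Sgk1 and Dusp1, with 1 and 1 under equal sums and 0 and 3 under 75th percentile scaling. The median differences of the 24 were 0.67 for Gr-1+ CD11b+ cells minus DC, 0.34 for Gr-1+ CD11b+ cells minus macrophages and -0.57 for DC minus macrophages. They were 0.32, 0.36 and -0.18 with equal sums, 1.33, 1.09 and -0.51 with median ratios and 1.39, 0.94 and -0.73 with 75th percentiles.

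Of 20 other bZIP factors, which can pair with or compete with AP-1, 2 were higher and 1 lower in Gr-1+ CD11b+ cells than DC, with 4 and 1 under median-ratio and 75th percentile scaling. Cebpb, a factor of emergency granulopoiesis and monocytes, was at 3912 FPKM in the Gr-1+ CD11b+ library, 247 in DC and 1719 in macrophages. Jdp2, which encodes a repressing partner of JUN, was at 322, 41.1 and 170 FPKM. These were the genes higher in Gr-1+ CD11b+ cells than DC, and Batf3 was the lower one. Batf3, required for conventional type 1 dendritic cells, was at 1.58 FPKM in the Gr-1+ CD11b+ library, which is below background, 20.6 in DC and 42.1 in macrophages. Nfil3 was at 305, 96.0 and 283 FPKM without a call. In Gr-1+ CD11b+ cells against macrophages 0 were higher and 3 lower, Batf3 and Batf2 among them, and 0 and 2 under median-ratio and 75th percentile scaling. Batf2, whose call was lost under those scalings, was at 8.52 FPKM in the Gr-1+ CD11b+ library, below background, and 44.2 in macrophages. In DC against macrophages 0 were higher and 3 lower, Cebpb and Jdp2 among them, and 0 and 2 under equal sums and median ratios.

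The kinases and factors upstream showed no call. Of 20 such genes, 0 were higher and 0 lower by the rule in each of the 3 comparisons, although median-ratio and 75th percentile scaling gave 2 higher in Gr-1+ CD11b+ cells than DC, equal sums gave 1 lower there, and median ratios gave 1 higher than in macrophages. Mapkapk2, a kinase activated by p38, was at 288 FPKM in the Gr-1+ CD11b+ library, 86.5 in DC and 308 in macrophages. Map2k2, a kinase of the ERK cascade, was at 38.2 FPKM in the Gr-1+ CD11b+ library, 73.7 in DC and 62.5 in macrophages. As deposited, Mapkapk2 was thus lowest in DC and Map2k2 in Gr-1+ CD11b+ cells. The coactivators of serum response factor Mkl1 and Mkl2 were at 4.11 and 10.5 FPKM in the Gr-1+ CD11b+ library, 15.8 and 1.92 in DC, and 11.4 and 3.21 in macrophages. Mkl1 in the Gr-1+ CD11b+ library and Mkl2 in macrophages were below background, so no order is given for them. Nab1 and Nab2, corepressors of EGR proteins, were at 46.7 and 4.34 FPKM in the Gr-1+ CD11b+ library, 26.1 and 10.2 in DC, and 49.9 and 18.3 in macrophages, and 0 of these 2 passed the rule. The Nab2 value in Gr-1+ CD11b+ cells was below background.

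Heat shock genes encode chaperones and, like immediate early genes, respond to stress. Of 13, 0 were higher and 3 lower in Gr-1+ CD11b+ cells than DC, Hsph1, Hsp90ab1 and Hspe1, with 0 and 1 under median-ratio and 75th percentile scaling. Against macrophages 0 were higher and 2 lower in the Gr-1+ CD11b+ library, and 0 and 0 under those scalings. Hspa1a and Hspa1b, near-identical copies whose values are uncertain, were at 22.1 and 19.7 FPKM in the Gr-1+ CD11b+ library, 32.9 and 37.7 in DC, and 119 and 103 in macrophages. Hspa8 was at 764, 1256 and 2360 FPKM, Hsp90ab1 at 133, 601 and 426 FPKM, Hsp90aa1 at 41.6, 120 and 95.2 FPKM and Hsph1 at 4.11, 33.5 and 13.9 FPKM in that order. The Hsph1 value in Gr-1+ CD11b+ cells was below background. As deposited, 0 of the 13 were highest in the Gr-1+ CD11b+ library, 7 in DC and 6 in macrophages. The 10 immediate early genes divided into 3, 2 and 5, and 15 housekeeping genes into 2, 9 and 4. Most genes at the floor were also lower in Gr-1+ CD11b+ cells, 4883 of 6740 against DC and 4421 of 6083 against macrophages. The part of cell handling in the heat shock and immediate early values was not tested.

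**Figure D4:**
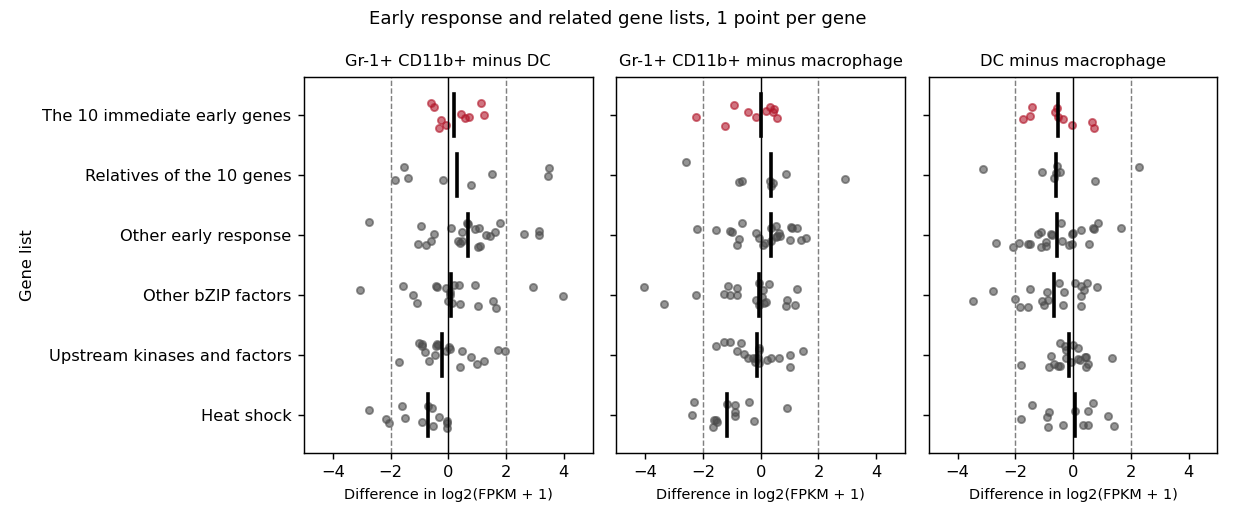
Difference in log2(FPKM + 1) for the 10 immediate early genes (red) and for genes of 5 related lists at 1 FPKM or more (grey), 1 point per gene with a black bar at the list's median and dashed lines at the rule of 2. Values are as deposited; the heat shock median of -0.72 for Gr-1+ CD11b+ cells minus DC is -0.02 with median ratios and 0.05 with 75th percentiles, and the median of 0.18 for the 10 genes is then 0.87 and 0.95. Egr3, past the line at 2.27 for DC minus macrophages, stays below the 10 FPKM floor.

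Housekeeping genes also differed between the libraries. As deposited, 9.39% of genes at the floor were called higher and 16.1% lower in Gr-1+ CD11b+ cells than DC. Of 15 housekeeping genes, 0 were higher and 3 lower there, Ppia, Eef2 and Rpl13a, and 0 and 1 under median-ratio and 0 and 0 under 75th percentile scaling. Their median difference was -0.94, -0.71 and 0.23 in the 3 comparisons, and became -1.31, -0.69 and 0.62 with equal sums, -0.25, 0.01 and 0.28 with median ratios and -0.18, -0.13 and 0.06 with 75th percentiles. Gapdh was at 1522 FPKM in the Gr-1+ CD11b+ library, 807 in DC and 1269 in macrophages. Relative to as-deposited values, median-ratio scaling shifted the median of all genes by 0.53 and 0.58 towards Gr-1+ CD11b+ cells from DC and macrophages, and 75th percentile scaling by 0.58 and 0.48. For DC minus macrophages equal sums shifted it by 0.31 and 75th percentiles by -0.14, and equal sums moved Gr-1+ CD11b+ cells minus DC by -0.29.

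Finally, the genes whose profile over the 3 libraries lay nearest to the mean profile of the 10 were sought among 1516 others that reached 100 FPKM in any library. That mean profile, in log2 units centred on 0, was -0.03 in the Gr-1+ CD11b+ library, -0.26 in DC and 0.28 in macrophages. The nearest by Euclidean distance were Arpc2, Dusp5, Arf5, Rhoa and Chmp2a, at distances of 0.0491 to 0.114. Arpc2, a subunit of the actin-nucleating Arp2/3 complex, was at 481 FPKM in the Gr-1+ CD11b+ library, 401 in DC and 611 in macrophages. Of the 10 genes Jun lay closest to that mean, at 0.218, and Egr2 farthest, at 1.40. With only 3 points per gene such likeness is common, and 285 of the 1516 genes were nearer than the median one of the 10.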

How the data were processed

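The labels' protocols name RNeasy for RNA, SMART-Seq HT for full-length cDNA and Nextera for the library. The authors deposited gene-level FPKM, 1 table for each library. The submitters' processing notes list Cufflinks 2.2.1, SAMtools 0.1.19, Bowtie2 2.2.3 and TopHat2 2.0.13 on mm10 without assigning steps to them. Strandedness, annotation and filters are not given in the sources used here. Because FPKM is a share of the library, genes that take a large part of it depress the others. The 10 highest genes took 33.5% in the Gr-1+ CD11b+ library, 15.0% in DC and 22.2% in macrophages.

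Values entered as deposited, as log2(FPKM + 1). With 1 library per population no test was run. The 10 genes, the lists and the rule of size were chosen with earlier results of these data known. Named are all 10 genes, the 3 highest and the 3 most different genes of other lists, the 5 nearest profiles and Fcgr1. Some genes this rule names are not reported here. Where a count of calls was small the genes behind it were also named, after their values were seen (Batf2, Hspe1, Egr3 and others). Gene models were GENCODE M21 (GRCm38), holding 23310 of 24346 symbols.

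Depth came from low values of genes with a single transcript over 800 nt. FPKM times length less 200 nt moved in steps of 0.400, 0.111 and 0.148 FPKM kb in Gr-1+ CD11b+ cells, DC and macrophages. Of these values 84.4%, 83.9% and 82.5% fell within 0.2 of a whole number of steps (40% by chance). Fragments and exact Poisson 95% intervals were derived from the steps and cover counting error only, since amplified fragments are not independent molecules. The rule of size and the step estimate were tested on simulated Poisson counts, and the intervals were not tested. The simulated counts held no spread between mice, isolations or amplification. They therefore cannot show how the rule behaves with 1 real library per population. Background was read from 1452 receptor genes. Alternatives were other pseudocounts, floors, limits and scalings. Marker sums without their leading gene and the counts of differences of 1 or more under each scaling were added after seeing the data. Software was Python 3.11.15, NumPy 2.4.6, pandas 2.3.3, SciPy 1.17.1 and matplotlib 3.10.9.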

Additional observations from a re-analysis of the deposited data

How the results depend on the processing

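The number of genes of the 10 past the rule of size was 0 for Gr-1+ CD11b+ cells against DC, 1 against macrophages and 0 for DC against macrophages. With a log2 limit of 1 it was 2, 2 and 3. With a limit of 3, a pseudocount of 10, median-ratio scaling or 75th percentile scaling the second count was 0, and with 75th percentile scaling 1, Fos, for Gr-1+ CD11b+ cells against DC. Pseudocount 0.1, floors of 1 and 30 FPKM, equal sums and subtracting the median of the receptor genes left the 3 counts as they were. The floors could not have changed them. All 10 genes exceeded 10 FPKM in every library, and Egr2, the 1 gene called, was at 64.3 FPKM in macrophages. Of 150 differences recomputed under 5 alternatives, 129 kept their sign and side of the rule. Another 17 changed sign without passing it, 3 lost the call, all of Egr2 between Gr-1+ CD11b+ cells and macrophages, and 1 gained it. A change of pseudocount cannot turn a sign, so all 17 sign changes arose under the scalings. Subtracting the receptor median moved the share of Egr1 in its family to 95.8% in Gr-1+ CD11b+ cells. The cause of these changes was not tested. No paired analysis was possible because each population has 1 library, and no library could be left out. The Gr-1+ CD11b+ library was the shallowest and had the highest background, which limits Egr2 and Fosb most.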
